A study of Sus scrofa with 16 samples.

Results

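The genes described are 4 enzymes of sugar breakdown, measured in liver and subcutaneous fat of the Iberian pig breed. They are ALDOC (aldolase C), GPI (glucose-6-phosphate isomerase), LDHA and LDHB (the subunits of lactate dehydrogenase). Members were all probe sets that the annotation of the array names with 1 of these 4 symbols. That gave 4 of the 24123 probe sets, 1 for each gene, and 4 of the 6765 genes with a symbol. The annotation ties them to NCBI gene 100512013 (ALDOC), 397602 (GPI), 407245 (LDHA) and 100621540 (LDHB). The LDHB identifier belongs to a RefSeq entry of 1280 bases, and a second entry of that symbol spans 20287 bases. Which of these copies the probes read was not tested.

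Liver and backfat, the fat under the skin of the back, came from males and females aged 211 days. High-fed animals are the controls, and low-fed animals had their feed cut by 20%. All had eaten the same pelleted diet before the restriction. The labels give no genotype, drug or transgene, and castration of the males is not mentioned. There were 16 arrays (Affymetrix, porcine), in 8 groups of 2 by tissue, sex and feeding level. Each tissue therefore held 4 high and 4 low arrays, or 4 male and 4 female arrays. Males 14 to 17 gave both tissues. Females 18 to 21 gave liver and 20 to 23 backfat, by their numbers, but the feeding level given for 20 and for 21 switches between liver and backfat, and no female was used as a pair. The labels hold 10 animal numbers in all, while the design text speaks of 8 animals. A female number is therefore used below only as the name of an array within its tissue, and the arrays numbered 20 or 21 in the 2 tissues are not taken as one animal. Values are GCRMA expression values on a log2 scale, on which a difference of 1 is a doubling and values at or below 4 are taken here as background. All levels below are on this scale, and all differences are log2 differences with their standard error. Precision is limited by the number of arrays.

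Glycolysis splits glucose into pyruvate. GPI turns glucose phosphate into fructose phosphate early in the pathway, and an aldolase then cuts the doubly phosphorylated sugar into its 3-carbon products. Aldolase C is the form known best from brain. Lactate dehydrogenase interconverts pyruvate and lactate; LDHA encodes the muscle-type subunit and LDHB the heart-type subunit of the enzyme. The liver also runs much of the pathway in reverse to make glucose, and fat cells take up glucose as a source of glycerol and fatty acids.

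The tissue labels were checked first. All 7 hepatocyte marker genes stood above 4 on every liver array, with a mean of 14.53 to 14.82. The adipocyte list had 5 of 7 genes on the array, and all 5 were above 4 on every backfat array, with a mean of 11.05 to 12.28. In liver only FABP4 was above 4, on the arrays of females 20 and 21 with at most 4.37. Backfat was not free of hepatocyte transcripts: the list mean ran from 4.11 to 8.46, with 1 to 7 of the 7 genes above 4. Of 8 skeletal muscle markers on the array, 0 were above 4 on any array. In bulk tissue, fewer cells of a type and less RNA per cell cannot be told apart.

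ALDOC was the gene with the widest gap between the tissues among these 4. In liver it ran from 2.90 to 4.58 with a median of 4.01, and only 4 of the 8 arrays were above background. In backfat it ran from 11.76 to 12.67 with a median of 12.06. The groups lay far apart, with means of 3.83 ± 0.62 (SD, n = 8) and 12.15 ± 0.31 (SD, n = 8). The fitted difference, backfat minus liver, was 8.32 ± 0.23 (SE; limma, Benjamini-Hochberg adjusted p = 2.19e-11). Since liver lay at the background, the fold is given as a bound: ALDOC was at least 259-fold higher in backfat when liver values under 4 are set to 4. In the males, whose tissues came from the same animals, the difference was 7.51 in male 15 and 7.66 in male 17. The livers of males 14 and 16 were below 4, and with these set to 4 their differences were at least 8.01 and 8.38.

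LDHB was the other member whose tissues did not overlap. It ran from 9.31 to 12.65 in liver (median 10.51) and from 13.94 to 14.36 in backfat (median 14.10). Backfat averaged 14.13 ± 0.14 (SD, n = 8) and liver 10.64 ± 1.03 (SD, n = 8). The fitted difference was 3.49 ± 0.25 (SE; limma, adjusted p = 1.15e-07) or 11.2-fold. Backfat values were tight while liver values spread over 3.34 log2 units. The highest probe set of an array lay between 15.5 and 15.6, so LDHB in backfat stood near the top of the scale. In males 14 to 17 the within-animal difference was 3.34, 3.73, 4.58 and 4.64.

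LDHA, the muscle-type subunit, differed less and its tissues overlapped. It ran from 9.56 to 10.08 in liver (median 9.89) and from 9.69 to 11.66 in backfat (median 10.44), where female 21 was highest. The means were 9.85 ± 0.23 (SD, n = 8) and 10.43 ± 0.64 (SD, n = 8). Backfat minus liver was 0.58 ± 0.18 (SE; limma, adjusted p = 0.0106) or 1.49-fold. The call was lost in the males alone with the animal as a replicate block, where the difference was 0.34 ± 0.19 (SE; adjusted p = 0.171). Male 14 differed by -0.03 and males 15, 16 and 17 by 0.98, 0.13 and 0.28.

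GPI, the isomerase, had the smallest tissue difference of the 4 and did not pass. It ran from 9.91 to 10.89 in liver (median 10.19) and from 10.31 to 10.73 in backfat (median 10.57). The difference was 0.25 ± 0.13 (SE; 95% interval -0.04 to 0.53; limma, adjusted p = 0.105). The liver arrays of male 14, at 10.80, and female 21, at 10.89, stood above all backfat arrays, while the other 6 liver arrays, at 9.91 to 10.27, lay below all of them. Without the liver of male 14 the difference was 0.31, without that of female 21 it was 0.34, and without both 0.40. The fit without both was added after the values were seen. Leaving out livers that stood above all backfat arrays had to raise the difference, so these fits are no support for it. The difference was 0.16 without the liver of female 18. With arrays shifted to a common median it was also 0.16 (limma, adjusted p = 0.289).

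**Figure D1:**
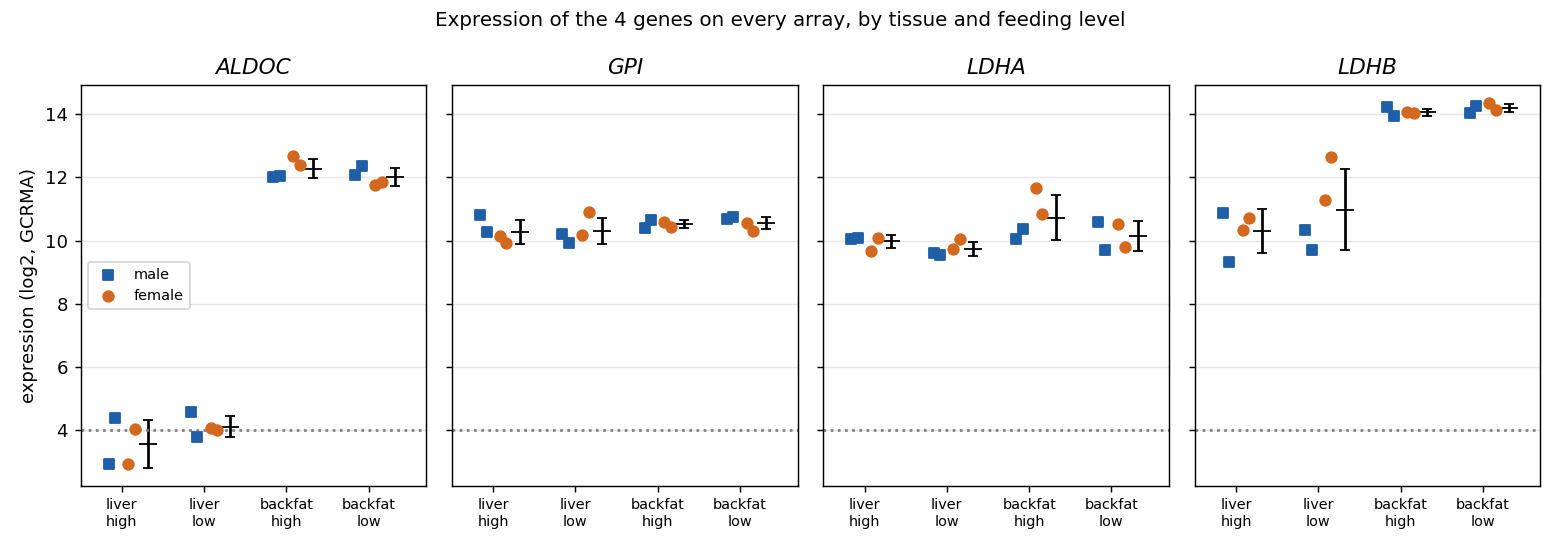
Expression (log2, GCRMA) of the 4 genes on each of the 16 arrays, in 4 columns by tissue and feeding level. Squares are males, circles females, black marks the mean ± SD of the 4 arrays, and the dotted line is the background level of 4. ALDOC and LDHB separate the tissues without overlap, whereas GPI and LDHA overlap; feeding levels overlap for all 4 genes in both tissues.

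Tissue differences were the rule on this array, and the members are to be read against that. Of 13962 probe sets tested over both tissues, 75.7% were called, 43.6% as higher and 32.2% as lower in backfat. Of the 4 members 3 were called, about the share of all probe sets, and these 3 were higher in backfat. Tissues did not overlap for 44.9% of probe sets and for 2 of the 4 members. The absolute difference of LDHB was larger than that of 91.9% of the probe sets tested. ALDOC is not ranked, since its liver level is only a bound. LDHA, at 40.9%, and GPI, at 19.5%, were in the lower part of that distribution. The smallest p that an exact two-sided permutation test of 8 against 8 arrays can give is 0.000155, and ALDOC and LDHB both reached it; LDHA had 0.0202 and GPI 0.101, unadjusted.

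The subunits of lactate dehydrogenase changed unequally between the tissues. Within each array, LDHB minus LDHA ran from -0.77 to 2.59 in liver and from 2.41 to 4.58 in backfat. The mean of this within-array value was 2.91 higher in backfat (exact two-sided permutation p = 0.000311; adjusted over 5 comparisons p = 0.00155), and the tissues overlapped only through the highest liver value, from the low-fed array numbered 21, and the lowest backfat value, from the high-fed array of that number. The same value did not differ past the threshold by feeding level or sex in either tissue (exact permutation tests, adjusted p = 0.286 to 0.371). This comparison was chosen after the values were seen, and it shows unequal change of 2 probe sets, not their relative amounts.

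The rest of the pathway was described with a list of 33 glycolysis symbols, of which 23 were named on the array and 17 bright enough to test. Beside the 4 members, 11 of 13 genes were higher in backfat and 1 was lower, where 75.7% of all probe sets were called and 43.6% were higher. The median difference of all 17 was 0.87, against 0.15 for all probe sets tested. At glucose entry, the transporters parted. SLC2A3 (GLUT3) was above 4 on 3 of 8 liver arrays and at least 11.2-fold higher in backfat, and SLC2A1 (GLUT1) was 0.48 ± 0.17 (SE) higher. SLC2A2 (GLUT2), the classical hepatocyte glucose transporter, averaged 8.43 in liver, was below 4 on all backfat arrays and was at least 21.5-fold lower there.

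Among the kinases at the head of the pathway, hexokinase HK1 was 3.75 ± 0.14 (SE) higher in backfat (limma, adjusted p = 2.78e-10). HK3 had 0.38 ± 0.17 (SE) and did not pass (adjusted p = 0.0597). All 3 phosphofructokinase genes were higher, and this enzyme catalyses the step between GPI and aldolase. PFKP was below 4 on all liver arrays and at least 2.65-fold higher, PFKM was at least 2.43-fold higher, and PFKL differed by 0.57 ± 0.18 (SE; adjusted p = 0.0151).

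Below aldolase, TPI1, which interconverts the aldolase products, differed by 1.22 ± 0.12 (SE). GAPDH differed by 0.32 ± 0.10 (SE), with 2 of its 4 other probe sets tested and both called the same way. PGK1 differed by 0.87, ENO1 by 0.79 and the pyruvate kinase gene PKM by 1.26, all higher in backfat with adjusted p-values from 9.12e-06 to 4.42e-05 (limma). The other 6 genes named on the array were below 4 on all 16 arrays. Among these were the glucose transporter SLC2A4 (GLUT4), LDHC and the muscle-type ENO3. Whether their transcripts were absent was not tested. The remaining 10 symbols were not analysed here.

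**Figure D2:**
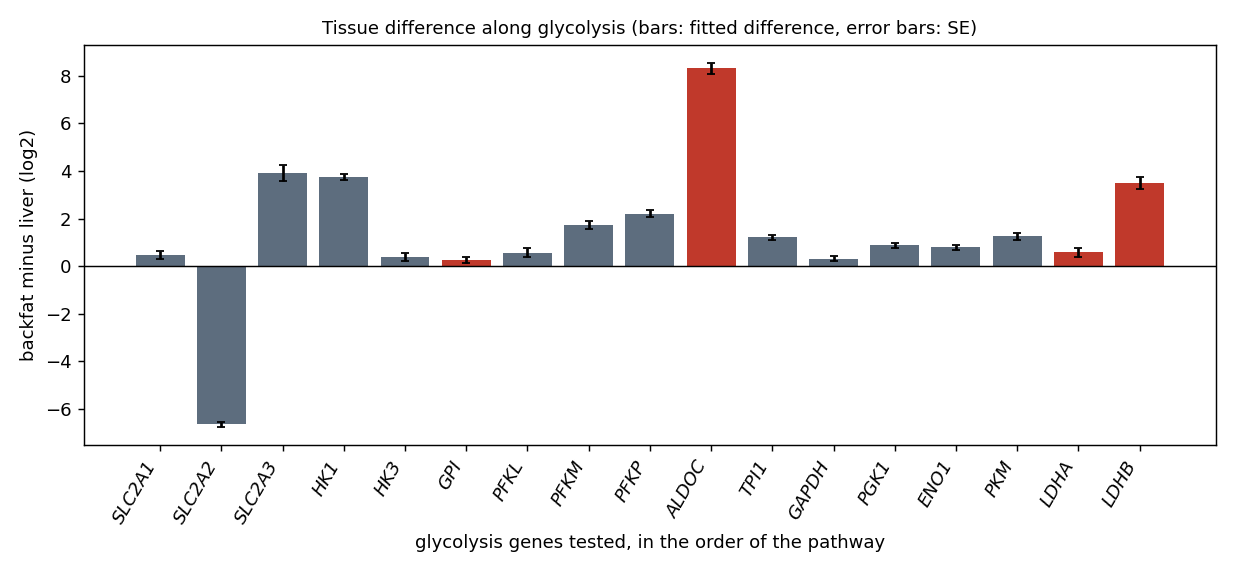
Difference between backfat and liver (log2; bars are the fitted difference, error bars its SE, 8 arrays per tissue) for the 17 glycolysis genes tested, from glucose transport on the left to lactate dehydrogenase on the right, with the 4 genes described here in red. ALDOC, at 8.32, is the longest bar and SLC2A2 the only one below 0; for genes at background in 1 tissue the bar depends on the background model.

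Of 16 tested genes that handle the pyruvate and lactate made downstream, 9 were higher and 4 lower in backfat, which is near the shares over all probe sets (75.7% called, 43.6% higher and 32.2% lower). The higher ones held the mitochondrial pyruvate carrier subunits MPC2 (1.74) and MPC1 (0.78), the pyruvate dehydrogenase subunits PDHA1 (1.43), DLAT (1.32) and PDHB (0.58), pyruvate carboxylase PC (1.59), the cytosolic malate dehydrogenase MDH1 (2.81) and the dehydrogenase kinases PDK4 (1.26) and PDK3 (1.12). The lower ones were LDHD, the D-lactate dehydrogenase, with -1.80, the aspartate aminotransferases GOT1 (-2.22) and GOT2 (-0.79), and the mitochondrial malate dehydrogenase MDH2 (-1.02). LDHD was above 4 on 5 of 8 backfat arrays and PDK3 on 6 of 8 liver arrays. With values under 4 set to 4, LDHD was at least 3.32-fold lower and PDK3 at least 2.06-fold higher in backfat. The median of the list was 0.69.

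The feeding level was the treatment of the study. No member was called in either tissue, and 0% of the 12617 probe sets tested in liver and 0% of the 12686 in backfat were called (limma; 11.5% and 11.1% had an unadjusted p below 0.05). High and low arrays overlapped for all 4 members in both tissues, where 5.9% of probe sets in liver and 6.61% in backfat did not overlap. Exact two-sided permutation tests of 4 against 4 arrays, which cannot go below 0.0286, gave unadjusted p-values from 0.171 to 0.886.

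In liver, ALDOC was 2.90, 4.38, 2.92 and 4.04 on the high-fed arrays of animals 14, 17, 19 and 20 and 4.58, 3.77, 4.06 and 3.98 on the low-fed arrays of animals 15, 16, 18 and 21. Both groups had 2 of 4 arrays above background, and the difference, low minus high, of 0.54 ± 0.40 (SE; limma, adjusted p = 0.645) became 0.06 when values under 4 were set to 4. LDHB was 10.88, 9.31, 10.32 and 10.71 in the high-fed livers, in the same order, and 10.32, 9.69, 11.28 and 12.65 in the low-fed ones. Female 21 stood highest by over 1 log2 unit. The LDHB difference was 0.68 ± 0.44 (SE; adjusted p = 0.588), and 0.34 without female 21, 0.28 without male 17 and 1.07 without male 14.

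LDHA in liver was 10.06, 10.08, 9.68 and 10.08 on high-fed arrays and 9.61, 9.56, 9.72 and 10.06 on low-fed arrays. High-fed livers were thus mostly above low-fed ones, apart from female 19 among the high-fed and female 21 among the low-fed. The difference was -0.24 ± 0.15 (SE; 95% interval -0.59 to 0.11; limma, adjusted p = 0.567). GPI differed by 0.02 (95% interval -0.49 to 0.53), and its high values were the high-fed male 14 and the low-fed female 21. The lowest p of the glycolysis list in liver belonged to PGK1, which makes ATP in the lower pathway. It was 10.16, 10.45, 10.77 and 10.71 in high-fed and 9.64, 9.60, 10.10 and 10.09 in low-fed livers, without overlap, and its difference of -0.66 ± 0.12 (SE) did not pass over all probe sets (adjusted p = 0.266). GAPDH and HK1 were next, both with -0.27.

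In backfat, ALDOC was 12.01, 12.04, 12.67 and 12.41 on the high-fed arrays of animals 14, 17, 21 and 22 and 12.08, 12.38, 11.76 and 11.85 on the low-fed arrays of animals 15, 16, 20 and 23. LDHA was 10.04, 10.36, 11.66 and 10.85 on the high-fed and 10.58, 9.69, 10.51 and 9.78 on the low-fed arrays, in the same order. For both genes the high-fed females held the top values, whereas among males the feeding levels overlapped for LDHA and the low-fed arrays were higher for ALDOC. The difference, low minus high, was -0.26 ± 0.13 (SE; limma, adjusted p = 0.505) for ALDOC and -0.58 ± 0.30 (SE; adjusted p = 0.512) for LDHA, the latter -0.38 without female 21, -0.36 without male 16 and -0.40 without female 23. GPI had 0.05 (95% interval -0.27 to 0.37) and LDHB 0.13 (95% interval -0.19 to 0.45). TPI1 was the third of the list by p, with 0.28 (adjusted p = 0.601).

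Cell type markers of backfat are given beside these values. The adipocyte list summed to between 55.2 and 55.7 log2 units over its 5 genes in low-fed backfat and to between 56.3 and 61.4 in high-fed backfat, the top being female 21. Within it, LEP ran from 6.91 to 7.88 in low-fed and from 8.08 to 10.60 in high-fed backfat, without overlap. ADIPOQ overlapped, at 11.74 to 12.94 in low-fed and 11.58 to 13.41 in high-fed backfat. The gap between the sums rests on LEP, since the feeding levels overlap when LEP is left out of the adipocyte sum. The 7 hepatocyte genes summed to between 36.9 and 59.2 in low-fed and between 28.8 and 47.4 in high-fed backfat. The 4 macrophage genes on the array summed to between 14.7 and 17.8 in low-fed backfat, lowest in female 23, and to between 17.7 and 22.0 in high-fed backfat, highest in female 21. The 5 endothelium genes summed to between 39.6 and 42.3 in low-fed and between 39.7 and 44.2 in high-fed backfat. For the 4 fibroblast genes on the array the sums were 36.9 to 38.1 in low-fed and 35.5 to 38.8 in high-fed backfat. The part of any of these lists in the ALDOC and LDHA values was not tested.

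**Figure D3:**
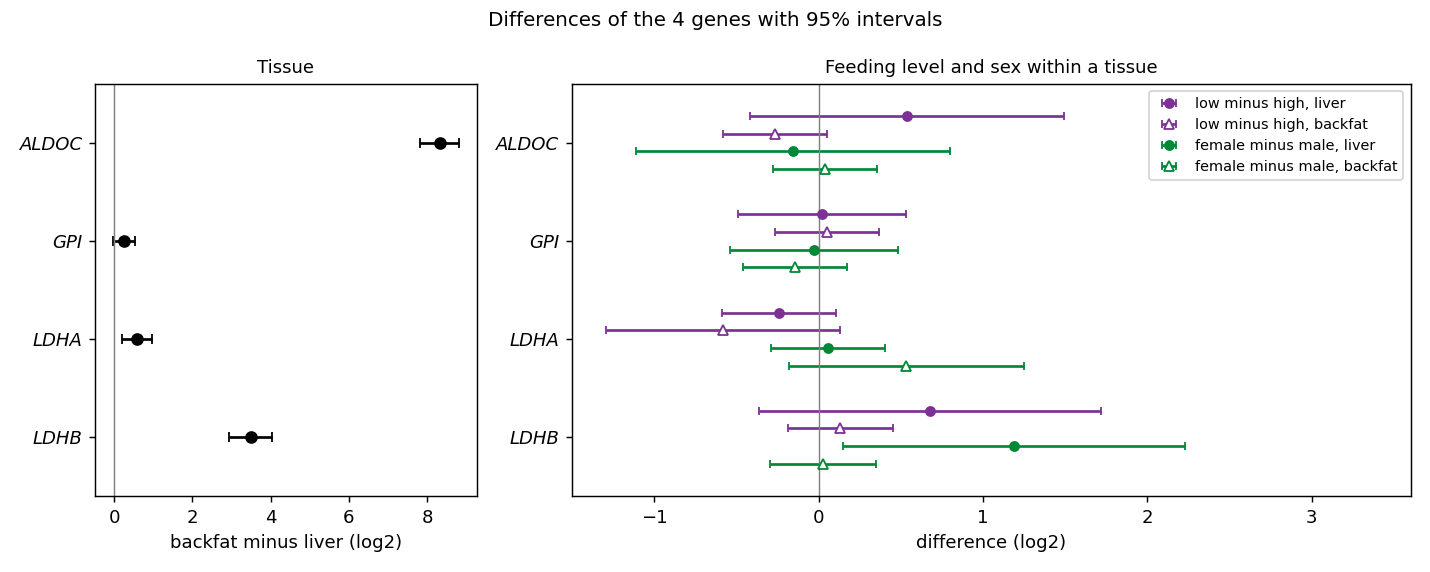
Fitted differences (log2, points) with 95% intervals (bars) of the 4 genes, for backfat minus liver on the left and, on a narrower scale, for low minus high feeding and female minus male within each tissue on the right (filled symbols liver, open symbols backfat). The tissue intervals of ALDOC, LDHA and LDHB lie above 0, and on the right only that of LDHB for sex in liver leaves out 0, without adjustment for multiple tests.

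Sex was the other factor within a tissue. No member was called in liver, where 4.53% of probe sets were, or in backfat, where 0.11% were. Females and males overlapped for all 4 members in both tissues, where 11.8% of probe sets in liver and 3.54% in backfat did not. LDHB had the largest difference of the 4. Male livers stood at 10.88, 10.32, 9.69 and 9.31 (animals 14 to 17) and female livers at 11.28, 10.32, 10.71 and 12.65 (animals 18 to 21), so that 2 of 4 female livers lay within the male range. The difference, female minus male, was 1.19 ± 0.44 (SE; limma, adjusted p = 0.203; exact permutation p = 0.114, unadjusted). It was 0.85 without female 21, 0.80 without male 17 and 1.58 without male 14. The 4 red blood cell markers on the array averaged 5.99 in the liver of female 21 and 4.10 to 5.21 in the other livers, and their part in the LDHB value was not tested.

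The other members differed little by sex in liver. ALDOC had -0.16, GPI -0.03 and LDHA 0.06, and each changed sign when single arrays were left out. In the glycolysis list, PGK1 (0.45 ± 0.12 SE; adjusted p = 0.0978) and PFKM (0.44; adjusted p = 0.194), the latter above 4 on 2 of 8 liver arrays, had the lowest p before LDHB, and 0 of 16 genes passed (limma). In the pyruvate and lactate list, PDK4, which inhibits pyruvate dehydrogenase, was higher in female livers by 1.75 (adjusted p = 0.0392), and LDHD was lower with -1.62 (adjusted p = 0.0441). Each of these calls was lost with 6 of the 8 liver arrays when they were left out singly, PDK4 keeping it without male 14 or 17 and LDHD without male 14 or 15.

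In backfat, LDHA was 10.04, 10.58, 9.69 and 10.36 in males 14 to 17 and 10.51, 11.66, 10.85 and 9.78 in females 20 to 23, a difference of 0.53 ± 0.30 (SE; limma, adjusted p = 0.830). It was 0.31 without male 16, 0.33 without female 21 and 0.35 without female 20. Both sexes overlapped. GPI had -0.14 ± 0.13 (SE). ALDOC had 0.04 and LDHB 0.03, and both turned negative when arrays were shifted to a common median. Of the other glycolysis genes, PKM had 0.35 (adjusted p = 0.822) and GAPDH -0.25 (adjusted p = 0.837).

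Whether feeding acted differently in females and males was asked within each tissue. By limma, no probe set was called in liver (0%; 5.43% at an unadjusted p below 0.05) or in backfat (0%; 5.27%). ALDOC in backfat gave the lowest p of the glycolysis list. Low-fed females, at 11.76 and 11.85, lay below high-fed females, at 12.67 and 12.41, whereas low-fed males, at 12.08 and 12.38, lay above high-fed males, at 12.01 and 12.04. The feeding effect in females minus that in males was -0.94 ± 0.26 (SE; limma, adjusted p = 0.893). HK1 had -1.28 and PKM 0.73 (both adjusted p = 0.893), and LDHA had -1.04 ± 0.60 (SE; adjusted p = 0.893), with -0.59 without male 15, -0.64 without female 21 and -0.68 without female 23.

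In liver the same interaction was 0.96 ± 0.43 (SE; limma, adjusted p = 0.898) for GPI and 1.54 ± 0.87 (SE; adjusted p = 0.905) for LDHB. Without the liver of female 21 these were 0.60 and 0.86, and without those of male 14 and female 21 they were 0.33 and 0.07. LDHB alone ran from 0.76 without male 14 to 2.33 without male 17. PFKM (1.29) and GAPDH (0.53) were the other glycolysis genes of lowest p, with adjusted p = 0.898. LDHA had 0.50 and ALDOC 0.01.

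Feeding and sex effects were also compared between the tissues. For feeding, backfat minus liver, 0.0215% of probe sets were called and no member. ALDOC had -0.80 ± 0.46 (SE; limma, adjusted p = 0.679), LDHB -0.55, LDHA -0.34 and GPI 0.03, while PGK1 had 0.40 and GAPDH 0.33. The ALDOC value was -0.32 with values under 4 set to 4. With each array left out it ran from -1.17 to -0.43 (nearest 0 without the liver of male 14), that of LDHB from -0.94 to -0.15 (nearest 0 without the liver of male 17) and that of LDHA from -0.57 to -0.12 (nearest 0 without the backfat of male 16). For sex, 2.21% of probe sets were called and again no member. LDHB came closest, with -1.16 ± 0.49 (SE; adjusted p = 0.329), followed by PGK1 with -0.55 and PKM with 0.43. ALDOC had 0.20, GPI -0.12 and LDHA 0.48. With each array left out, LDHB ran from -1.56 to -0.77 and LDHA from 0.25 to 0.70, nearest 0 without the liver of male 17 and the backfat of male 16.

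Finally, each member was matched with the 3 named genes whose values followed it most closely over the 16 arrays once the mean of each tissue was taken away, among 6888 probe sets with 1 symbol. These are descriptions over arrays that share animals, feeding and normalization. GPI was followed by PLIN2, a coat protein of lipid droplets (r = 0.91), GART, an enzyme of purine synthesis (r = 0.87), and PMM1, a phosphomannomutase (r = 0.85). In liver PLIN2 was 7.18 in male 14 and 7.83 in female 21 and 3.84 to 4.65 in the other 6 animals, so that the same 2 livers were high for PLIN2 and for GPI. GART, at 5.01 and 4.28, and PMM1, at 5.90 and 7.62, were above 4 in those livers alone. They passed the filter of 4 on at least 2 arrays only through these livers, where GPI was high. Their r is therefore no support for a link with GPI. In backfat alone, r with GPI was 0.53 for PLIN2, 0.51 for GART and -0.03 for PMM1.

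LDHB was followed by SPTY2D1, a histone chaperone (r = 0.91), HGFAC, a protease that activates hepatocyte growth factor (r = 0.87), and the glutamine transporter SLC38A1 (r = 0.85). SPTY2D1 was 7.80 in the liver of female 21, 6.93 in male 14 and 5.12 to 6.23 in the others. Without the liver of female 21 these r fell to 0.79 for SPTY2D1, 0.72 for HGFAC and 0.80 for SLC38A1. In backfat, HGFAC and SLC38A1 were below 4 on all arrays. SLC38A1 was above 4 only in the livers of male 14 and females 18, 20 and 21, where LDHB was also highest. It passed the filter only through these livers, so its r is no support for a link with LDHB.

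LDHA was followed by CTNNB1, which encodes beta-catenin (r = 0.88), C3H16orf91 (r = 0.87) and MEMO1 (r = 0.87). CTNNB1 in backfat was 7.74 in female 21 and 5.16 to 6.71 in the others, the lowest being female 23, which was the second lowest for LDHA. Without the backfat of female 21, r was 0.78 for CTNNB1 and 0.77 for MEMO1. For ALDOC the rule named the kinase gene DYRK3 (r = 0.75), LOC100519808 (r = 0.74) and the sialyltransferase gene ST6GALNAC4 (r = 0.73). These values lean on liver, where ALDOC was above 4 on 4 of 8 arrays and DYRK3 on none. In backfat alone, where ALDOC was bright, r was 0.80 for DYRK3, 0.33 for LOC100519808 and 0.45 for ST6GALNAC4. DYRK3 itself lay near background in backfat, at 3.96 to 4.74, which limits its r there too.

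**Figure D4:**
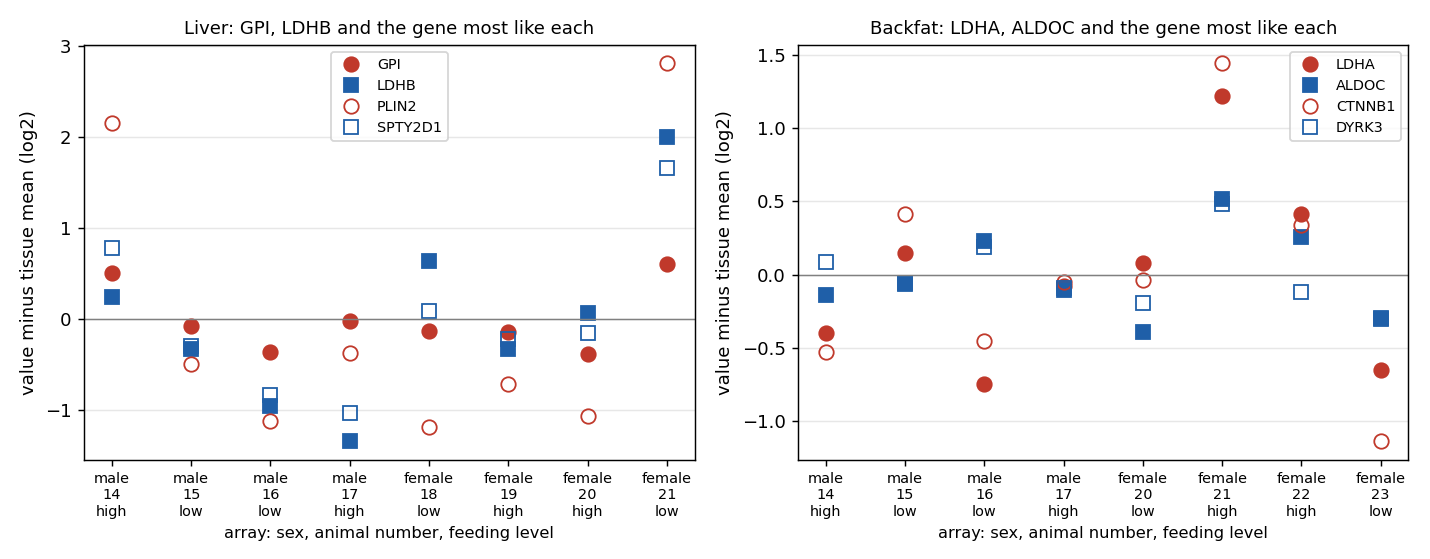
Values minus the tissue mean (log2) on each array, ordered by sex and animal with the feeding level below. Left, liver, with GPI and its closest gene PLIN2 in red and LDHB and its closest gene SPTY2D1 in blue; right, backfat, with LDHA and CTNNB1 in red and ALDOC and DYRK3 in blue (filled symbols are the glycolysis genes). Male 14 and female 21 stand apart in liver for GPI and PLIN2, and female 21 is highest in backfat for LDHA, CTNNB1, ALDOC and DYRK3.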

How the data were processed

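The authors deposited 1 table of log2 expression values. They were made with GCRMA, per the submitters' processing notes. Version and settings: not given in the sources used here. The method corrects background by probe sequence, so differences against background depend on that model. RNA was isolated with a RiboPure kit and labelled with biotin, per the labels' protocols. Batches or scan dates are not in the labels and could not be tested. The platform's annotation gave 1 symbol to 10069 probe sets, which were named by it. No promoter, transcript or protein sequences are shown.

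A probe set was tested when above 4 on at least 2 arrays of the fit, after leaving out 124 controls. Group means were fitted with limma 3.58.1 in R 4.3.3, within a tissue (feeding, sex, interaction) or over all 16 arrays (tissue and its interactions), with Benjamini-Hochberg adjusted p-values over all probe sets tested and a threshold of 0.05. The fits were tested on simulated data. Exact permutation tests were added for single values. A gene of several probe sets was represented by the brightest on average. Bounds ("at least") set values under 4 to 4. The p-values measure the spread between arrays, and the arrays of a male were treated as separate animals. Deviations of the tissues of the 4 males from their group means correlated by 0.0874 (males 14 and 17) and 0.0549 (males 15 and 16). With 2 arrays in a group, both males of a group give the same value by construction. These values therefore cannot decide whether the pairing matters. The replicate block rests on their animal numbers in the labels.

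The members and lists were chosen with earlier results of these data known. Named genes were the members, list genes past the threshold, the 3 lowest p of the glycolysis list in each comparison, and the 3 genes most like each member. Genes at background, LDHB minus LDHA, correlations among members and the fit without 2 livers were added after the values were seen. Alternatives were other filters, variance models, normalizations, weights and models, each array left out, and the animal as a block.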

Additional observations from a re-analysis of the deposited data

Results flagged for a closer look

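Each of 40 groups of 4 or 8 arrays of a member was looked at for an array far from the rest. In 2 of them the lowest array stood apart, where chance gives about 1 in 20. Both were the liver of female 19, a high-fed animal. ALDOC was 2.92 there and 3.98 to 4.06 in the other 3 female livers, although that gap spans the background level of 4. LDHA was 9.68 there and 10.06 to 10.08 in the other 3 high-fed livers.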

How the results depend on the processing

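The 4 genes gave 36 results, which were recomputed 737 times. Calls changed in 4 of these recomputations and the sign in 42, in 12 results; no value that passed the threshold changed sign. The tissue differences of ALDOC (8.02 to 8.50) and LDHB (3.29 to 4.07) kept their calls throughout. With the males alone and the animal as a fixed replicate block, LDHA lost its call at 0.34 (adjusted p = 0.171), while ALDOC had 8.22, LDHB 4.07 and GPI 0.31 (adjusted p = 0.204). The random replicate block changed no member's call. GPI passed in tissue without the liver of male 14, of female 21 or of both (0.40), the livers that stood above all backfat arrays. Leaving these livers out had to raise the difference, so these calls are no support for it. With each array left out, GPI ran from 0.16 to 0.34 and LDHA from 0.47 to 0.69. Of the other glycolysis genes, 8 to 12 were higher and 1 lower in every setting.

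Sign changes were among differences near 0. Shifting arrays to a common median gave -0.00682 for ALDOC and -0.0229 for LDHB by sex in backfat. Setting values under 4 to 4 gave -0.0837 for the ALDOC interaction in liver, and leaving out the livers of male 14 and female 21 gave -0.0310 for GPI by feeding and -0.0323 for LDHA by sex in liver. With each array left out, ranges that crossed 0 were, for feeding, GPI in liver (-0.164 to 0.200) and backfat (-0.0159 to 0.116). For sex in liver they were ALDOC (-0.526 to 0.214), GPI (-0.209 to 0.155) and LDHA (-0.0431 to 0.156), and in backfat ALDOC (-0.0310 to 0.115) and LDHB (-0.0425 to 0.0948). For interactions they were ALDOC in liver (-0.728 to 0.751) and LDHB in backfat (-0.0215 to 0.253). Between the tissues they were GPI for feeding (-0.150 to 0.214), and ALDOC (-0.172 to 0.568) and GPI (-0.300 to 0.0646) for sex. The cause was not tested.

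Counts of called probe sets moved by over 1.5 times. With all 16 arrays in 1 fit, feeding gave 11 in liver and 53 in backfat against 0. Sex in liver gave 177 to 910 against 572, and in backfat 11 to 27 against 14. The interaction in liver gave up to 1 against 0. Differences between tissues gave 1 to 34 against 3 for feeding and 174 to 386 against 308 for sex. Averaging a gene's probe sets was not run because each member has 1. A filter at 6 left ALDOC out of the liver fits. ALDOC at background in liver limits its differences there.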

Other observations

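Genes that respond to low oxygen, a state known to raise glycolytic enzymes, were described with a list of 19 symbols, of which 9 were tested. In backfat, 6 were higher than in liver and 1 was lower, where 75.7% of all probe sets were called, 43.6% as higher and 32.2% as lower. The median difference was 0.84 against 0.15 for all probe sets. The vessel peptide gene ADM differed by 4.42 ± 0.14 (SE; limma, adjusted p = 7.05e-11), the oxygen-regulated transcription factors HIF1A and EPAS1 by 1.43 and 0.59, the oxygen sensor EGLN1 by 1.42 and ANKRD37 by 0.84. VEGFA differed by 0.96, but 1 of its other probe sets was called in the opposite direction. HMOX1, which degrades haem, was lower with -3.88. Within a tissue, 0 of 9 passed in any feeding, sex or interaction comparison (limma).

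Among the members, 9 correlations were computed within a tissue over its 8 arrays, leaving out ALDOC in liver, and none passed (exact permutation tests, adjusted p = 0.623 to 0.893 for r). The strongest was GPI with LDHB in liver, with Pearson's r = 0.63 (exact permutation p = 0.0953) and Spearman's rho = 0.33 (exact permutation p = 0.428). Without the 2 livers farthest from the median of GPI, r was -0.15, so that it rests on those arrays. LDHA and ALDOC in backfat had r = 0.57 (exact permutation p = 0.139) and rho = 0.50 (exact permutation p = 0.216), and r = -0.40 without the 2 farthest arrays.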
